A study of Mus musculus with 23 samples.

Results

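In cortical astrocytes, 8 genes of γ-aminobutyric acid (GABA) handling were followed: the transporters Slc6a11 and Slc6a13, the metabotropic receptor genes Gabbr1 and Gabbr2, the ionotropic receptor subunits Gabrg1, Gabra2 and Gabrb1, and the enzyme gene Maob. They were chosen by symbol as genes for GABA uptake, for GABA receptors found in astrocytes and for monoamine oxidase B. All 8 were among the 24411 gene symbols of the count table. Another 48 genes of GABA transport, synthesis, breakdown, release and reception were read beside them.

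GABA is the main inhibitory transmitter of the cortex. Astrocytes take it up through sodium-coupled transporters and sense it through GABA-A receptors, which are chloride channels built from subunits, and through GABA-B receptors, which couple to G proteins. Astrocytes can also make GABA from putrescine, a route in which monoamine oxidase B oxidises an acetylated intermediate.

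The study asked what loss of the lysine-degrading enzyme ALDH7A1 does in astrocytes, and whether dietary sulforaphane (SFN), a compound that activates the transcription factor NRF2, changes it. RNA was sequenced from 23 libraries of astrocytes pulled from adult mouse cortex with magnetic beads against the surface antigen ACSA-2. Every mouse was homozygous for an Aldh7a1 allele with exons flanked by loxP sites (Aldh7a1 flox/flox), was given 4-hydroxytamoxifen on postnatal days 3 and 4, was labelled male and was killed at postnatal day 70. ConAstro mice (n = 4) carried no Cre and ate the control diet. cKOAstro mice (n = 7) also carried the Cre recombinase CreER, which tamoxifen switches on, at 1 allele of Slc1a3 and ate the control diet. The same 2 genotypes on SFN chow from postnatal day 21 made up SFN-fed ConAstro (n = 5) and its counterpart SFN-fed cKOAstro (n = 7). The CreER allele replaces a working copy of Slc1a3, an astrocyte glutamate transporter, so the cKOAstro groups differ from controls in 2 genes, and CreER acts wherever Slc1a3 is active, which includes astrocytes and their progenitors.

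Total counts per library ran from 46890715 to 391701247. The lowest library held 438 counts of Slc6a13, and no other of the 8 genes fell below 1051 counts in any library, so counting error was small beside the spread between libraries. Levels are given as CPM, read counts scaled to library size with trimmed means (TMM), as mean ± SD over libraries. In bulk samples, fewer cells of a type and less RNA per cell cannot be told apart. Summed astrocyte markers (10 genes, 15588 to 31858 CPM) and summed oligodendrocyte markers (6 genes, 18954 to 49435 CPM) had a median ratio of oligodendrocyte to astrocyte sum of 0.97. It ran from 0.62 to 3.17, and the SFN-fed cKOAstro replicate 4 library held both the lowest astrocyte and the highest oligodendrocyte sum. Neuronal markers (8 genes) summed to 131 to 892 CPM. No marker of any list was at 0 in any library.

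A pair of libraries went against their labels at the targeted gene. Aldh7a1 was 207 to 220.5 CPM in ConAstro and 45.9 to 77.2 CPM in cKOAstro. Among the SFN-fed mice, ConAstro libraries held 177 to 226 CPM apart from the one labelled replicate 1, at 55.7 CPM. Their cKOAstro counterparts held 43.0 to 56.5 CPM apart from the one labelled replicate 2, at 222 CPM. Slc1a3, the gene that carries CreER, differed in the same way, at 2100 CPM in that ConAstro library and 4171 to 5674 CPM in the others of its group, and at 4436 CPM in that cKOAstro library and 1559 to 2792 CPM in the others. The differences that involve the SFN-fed groups are therefore also given without these 2 libraries. In addition, 1 library of the cKOAstro group, replicate 2, carried the female transcript Xist at 1541 CPM, which concerns Maob as an X-linked gene. In all, 6 libraries have names that begin with Astro (cKOAstro replicates 2 and 4, SFN-fed ConAstro replicate 1 and SFN-fed cKOAstro replicates 4 to 6), and none of them is in ConAstro. The other names begin with a number, which is 143 in ConAstro, 141 or 146 in cKOAstro, 145 or 147 in SFN-fed ConAstro and 143 or 147 in SFN-fed cKOAstro. What the names stand for is not given. On the control diet the genotypes thus share no name series, and their total counts also lay apart (74771451 to 84049525 in ConAstro, 107847897 to 391701247 in cKOAstro), so genotype cannot be told apart from either there. ConAstro and SFN-fed ConAstro share no name series either, so in controls diet cannot be told apart from it.

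The genes sit on 5 chromosomes of the mouse genome (GRCm38, the build also called mm10). Slc6a11 (chromosome 6, 114131241 to 114249952, plus strand) and Slc6a13 (chromosome 6, 121300227 to 121337733, plus strand) lie on 1 chromosome, and Slc6a13 lies beside Slc6a12, the gene of the betaine and GABA transporter. Gabrg1 (70751047 to 70842617, minus strand), Gabra2 (70957597 to 71095849, minus strand) and Gabrb1 (71658113 to 72149037, plus strand) belong to 1 cluster of receptor subunits on chromosome 5 that also holds Gabra4 and spans 1397991 bp. Gabbr1 is on chromosome 17 (37045966 to 37075067, plus strand), Gabbr2 on chromosome 4 (46662305 to 46991873, minus strand) and Maob on chromosome X (16709282 to 16817366, minus strand). Exons of Gabrb1 and Gabra4, which run in opposite directions, share 46 bp. The library kit, NEBNext Ultra II RNA, does not mark the strand, so reads from that stretch cannot be told apart.

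Because SFN acts on NRF2, the promoters were searched for TGACNNNGC, the core of the antioxidant response element that NRF2 binds, on both strands. RefSeq promoters (GRCm38.p6, 250 bases before to 50 after a start site) were at hand for 7 of the 8 genes, in 10 windows. The core was found in 2 of these 10 windows, 1 each of the transporter genes Slc6a11 and Slc6a13, and in 4071 of 32851 promoters of the genome (12.4%). Both windows are printed 5′ to 3′ on the plus strand with the core in capitals. The promoter of Gabrg1, the most AT-rich of the 10 at 38.3% GC, is printed after them on its own minus strand and holds no match.
Slc6a11, chr6:114130991-114131290: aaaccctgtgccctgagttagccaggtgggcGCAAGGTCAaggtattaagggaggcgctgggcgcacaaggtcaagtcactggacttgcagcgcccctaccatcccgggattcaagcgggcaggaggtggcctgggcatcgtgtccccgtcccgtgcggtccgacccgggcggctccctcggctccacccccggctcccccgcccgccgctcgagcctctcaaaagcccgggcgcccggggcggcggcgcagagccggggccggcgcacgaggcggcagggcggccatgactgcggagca
Slc6a13, chr6:121300038-121300337: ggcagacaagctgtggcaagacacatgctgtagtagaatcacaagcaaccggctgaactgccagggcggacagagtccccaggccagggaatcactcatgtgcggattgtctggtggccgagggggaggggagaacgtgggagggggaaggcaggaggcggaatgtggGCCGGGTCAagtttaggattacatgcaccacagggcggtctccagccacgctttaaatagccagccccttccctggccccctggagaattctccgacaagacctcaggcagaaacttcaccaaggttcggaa
Gabrg1, chr5:70842568-70842867: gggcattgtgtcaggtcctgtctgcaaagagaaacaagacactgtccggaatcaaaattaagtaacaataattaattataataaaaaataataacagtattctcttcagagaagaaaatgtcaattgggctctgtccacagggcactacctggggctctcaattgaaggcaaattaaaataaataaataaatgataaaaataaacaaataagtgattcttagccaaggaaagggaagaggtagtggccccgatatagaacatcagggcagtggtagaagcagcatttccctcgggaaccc
In both transporter promoters the core reads on the strand opposite to the gene. The base of the core farthest from the start site lies 219 bases before it in Slc6a11 and 82 bases before it in Slc6a13. The other 2 start sites of Slc6a13 and the promoters of Gabbr1, Gabbr2, Gabra2 and Gabrb1 held no match to these letters. GC content over the 10 windows ran up to 80.3% in Gabbr2, beside a median of 52.7% over all promoters. A match is a description of letters and not a measured site.

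Per kilobase of exon, the 8 genes spanned a wide range of levels. In ConAstro, Slc6a11 stood at 303 ± 16.4 CPM per kb (SD, n = 4), followed by Gabbr1 at 94.6 ± 11.1, Maob at 35.4 ± 0.90, Gabbr2 at 20.9 ± 4.55, Gabrg1 at 20.4 ± 3.27, Gabrb1 at 4.88 ± 0.81, Gabra2 at 4.29 ± 0.49 and Slc6a13 at 3.75 ± 0.40. Slc6a11, Gabbr1 and Maob kept this order above the rest in 23 of 23 libraries, as did the step from Gabrg1 to Gabrb1. Gabbr2 and Gabrg1 overlapped in range and Gabbr2 was the higher in 13 of 23 libraries. Gabrb1 exceeded Gabra2 in 22 of 23 libraries although their ranges overlapped, and Gabra2 exceeded Slc6a13 in only 6 of 23.

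**Figure D1:**
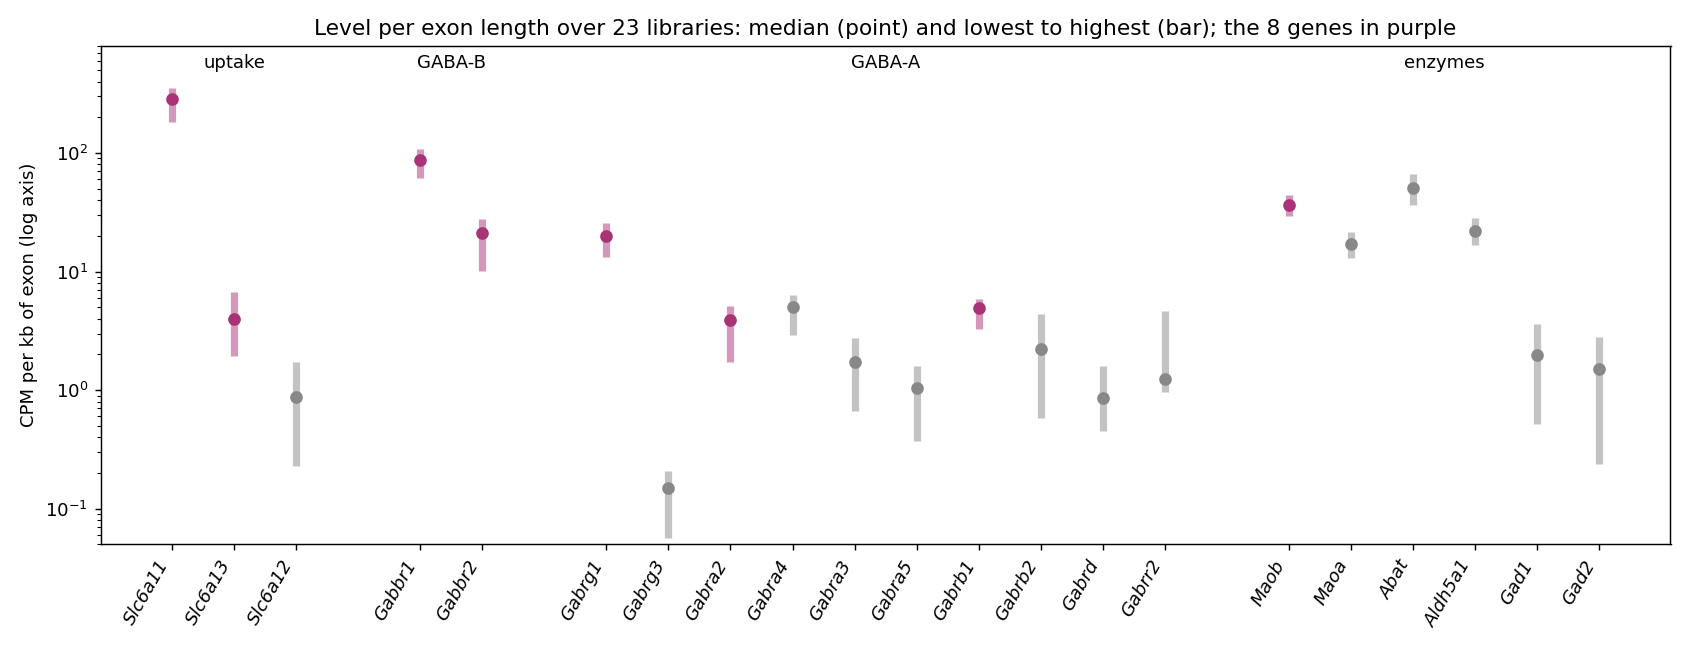
Level per kilobase of exon (CPM per kb, log axis) of the 8 genes (purple) and of related GABA genes (grey), with the median as a point and the lowest to highest of 23 libraries as a bar. Slc6a11 has the highest median of all genes plotted, and Gabrg1 stands above Gabrg3 without overlap.

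Levels of related genes were compared within each library, per kilobase. Gabrb1 exceeded Gabrb2, another β subunit of GABA-A receptors, by 1.15 to 5.66 times. Gabra2 was below Gabra4, its neighbour in the cluster, in all 23 libraries, at 0.39 to 0.94 of its level. Gabbr1 exceeded Gabbr2, whose product is its obligate partner in the GABA-B receptor, by 3.06 to 7.61 times. Slc6a13 stood above its neighbour Slc6a12 by 2.67 to 10.4 times.

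The 8 genes varied less between libraries than the genes of the GABA-synthesising enzymes of neurons did. From the lowest to the highest of 23 libraries the 8 genes differed by 1.51-fold (Maob) to 3.52-fold (Slc6a13) in CPM, whereas Gad1 and Gad2 differed by 7.09-fold and 11.7-fold. Summed neuronal markers differed by 6.79-fold and summed astrocyte markers by 2.04-fold over the same libraries. The coefficient of variation was 11.7% for Maob and 29.2% for Slc6a13, with a median over 17302 genes of 16.4%. The SFN-fed cKOAstro replicate 4 library, which had the lowest astrocyte marker sum of all, also held the lowest value of 5 of the 8 genes, and with Slc1a3 left out of the markers it was still the lowest. It also had the highest oligodendrocyte marker sum.

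Slc6a11, which encodes the astrocytic transporter GAT3, was abundant in every library. It was 1585, 1518, 1416 and 1595 CPM in ConAstro and 1116 to 1607 CPM in cKOAstro with a median of 1492. SFN-fed ConAstro libraries held 1274, 1413, 1701, 1793 and 1408 CPM, and SFN-fed cKOAstro libraries 929 to 1697 CPM with a median of 1313. Each group overlapped every other. The lowest value of 929 CPM came from SFN-fed cKOAstro replicate 4 and the highest from SFN-fed ConAstro replicate 4. Group means were 1529 ± 82.7, 1429 ± 166, 1518 ± 219 and 1344 ± 240 CPM in that order.

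Slc6a13, which encodes GAT2 and is known from the meninges and vessel walls more than from the cortical parenchyma, was the gene whose group means lay farthest apart relative to their size. ConAstro libraries held 11.0, 10.1, 12.5 and 9.99 CPM, and cKOAstro libraries 8.64 to 15.3 CPM with a median of 12.3. The 5 SFN-fed ConAstro libraries held 9.35, 17.8, 19.7, 15.02 and 16.0 CPM. SFN-fed cKOAstro libraries ran from 5.58 to 15.02 CPM with a median of 11.1. In SFN-fed ConAstro, 4 of 5 libraries lay above every ConAstro library, and the exception at 9.35 CPM was the library whose Aldh7a1 level goes against its label. The lowest 2 values, 5.58 and 5.68 CPM, were SFN-fed cKOAstro replicates 4 and 5, both with names that begin with Astro. Means were 10.9 ± 1.16 in ConAstro, 12.1 ± 2.25 in cKOAstro, 15.6 ± 3.91 in SFN-fed ConAstro and 10.2 ± 3.74 in SFN-fed cKOAstro.

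Gabbr1 encodes the GABA-binding subunit of the GABA-B receptor. Its ConAstro libraries held 787, 752, 608 and 791 CPM, and the medians were 648 in cKOAstro (594 to 822), 679 in SFN-fed ConAstro (621 to 842) and 614 CPM in SFN-fed cKOAstro (476 to 810.4). Gabbr2 encodes the subunit that couples to the G protein. It was 153, 161, 94.4 and 149 CPM in ConAstro, 95.8 to 169.8 in cKOAstro (median 143), 121 to 183 in SFN-fed ConAstro (median 142) and 67.9 to 184 CPM in SFN-fed cKOAstro (median 134). For both receptor genes the 4 groups overlapped, and ConAstro replicate 3 was the low library of its group.

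**Figure D2:**
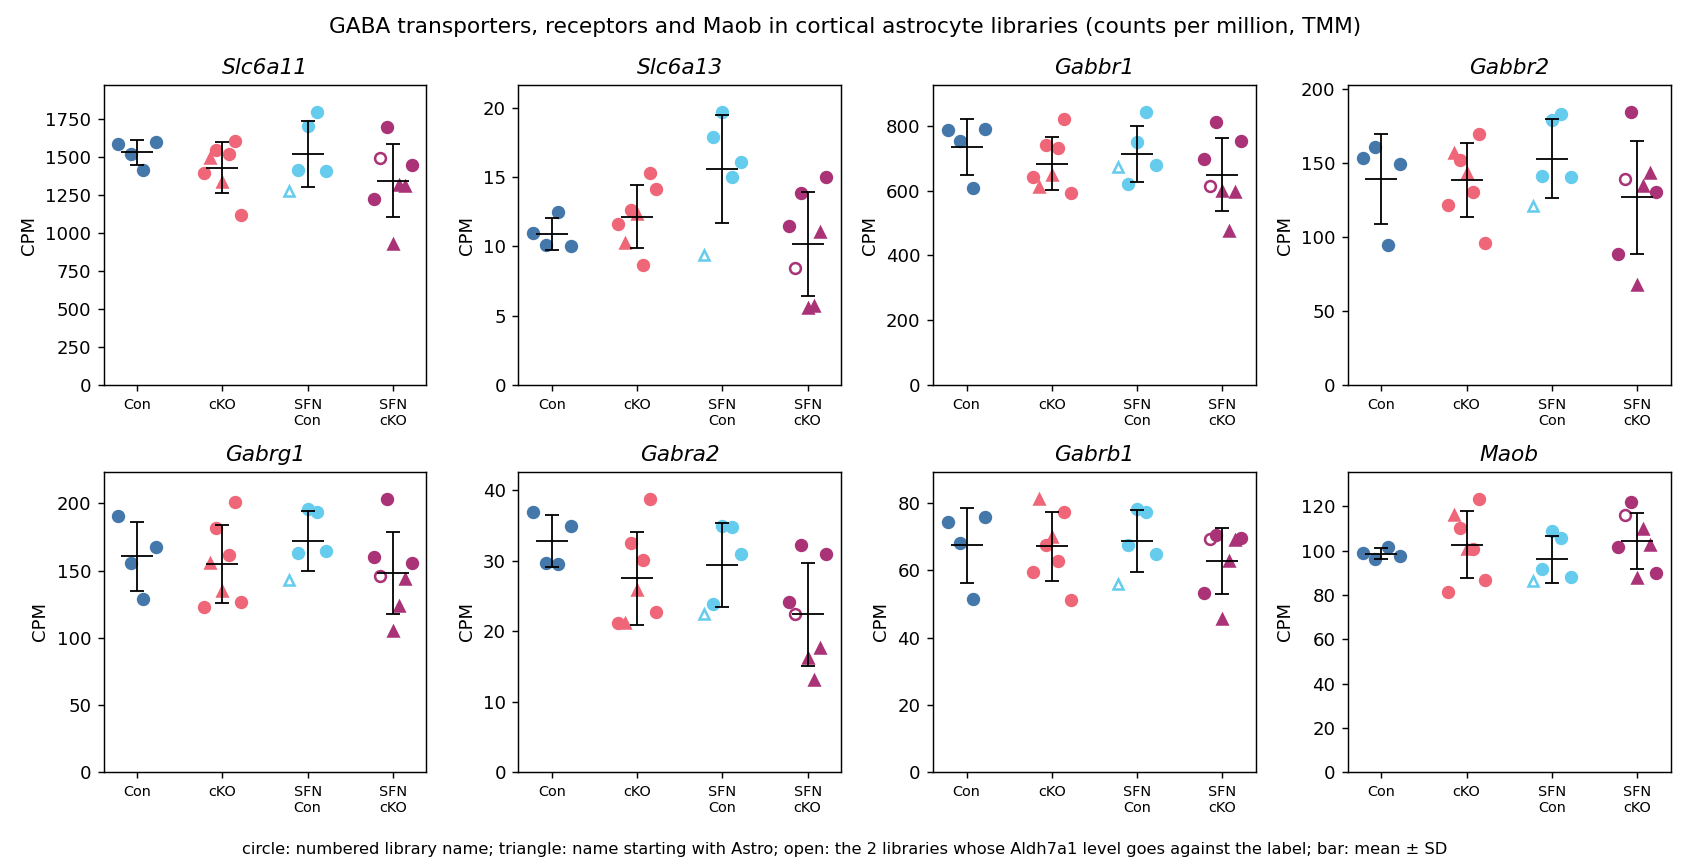
CPM of each of the 8 genes in every library of the 4 groups (Con, ConAstro; cKO, cKOAstro; SFN, sulforaphane diet), each vertical axis starting at 0. Bars are the mean ± SD, triangles are libraries named Astro and open symbols are the 2 libraries against their labels. All 8 genes overlap between groups, and 4 of the 5 SFN-fed ConAstro libraries of Slc6a13 lie above the ConAstro libraries.

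The GABA-A subunits were lower than the GABA-B genes per kilobase, apart from Gabrg1. Gabrg1, the γ subunit best known from astrocytes, held 191, 156, 129 and 167 CPM in ConAstro, with medians of 155 in cKOAstro (123 to 201), 165 in SFN-fed ConAstro (143 to 196) and 146 CPM in SFN-fed cKOAstro (105 to 203). Gabrb1, a β subunit, held 74.3, 68.2, 51.6 and 76.0 CPM in ConAstro, with medians of 67.5 in cKOAstro (51.3 to 81.2), 67.5 in SFN-fed ConAstro (56.0 to 78.3) and 68.9 CPM in SFN-fed cKOAstro (45.5 to 70.5). The group ranges of both genes overlapped throughout.

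Gabra2, an α subunit, was 36.9, 29.7, 29.5 and 35.0 CPM in ConAstro and 22.4, 23.8, 34.9, 34.8 and 30.9 CPM in SFN-fed ConAstro. In cKOAstro it was 21.1 to 38.7 CPM with a median of 25.9. SFN-fed cKOAstro libraries held 13.1 to 32.3 CPM with a median of 22.5. The lowest 3 values of all, 13.1, 16.1 and 17.6 CPM, were the 3 SFN-fed cKOAstro libraries with Astro names, and the other 4 of that group held 22.5 to 32.3 CPM. Group means were 32.8 ± 3.73, 27.5 ± 6.65, 29.4 ± 5.96 and 22.4 ± 7.33 CPM from ConAstro to SFN-fed cKOAstro.

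Maob, the enzyme gene, varied least. It was 99.1, 96.1, 102 and 97.4 CPM in ConAstro, 81.5 to 123 in cKOAstro (median 101), 86.2 to 109 in SFN-fed ConAstro (median 91.5) and 87.8 to 122 CPM in SFN-fed cKOAstro (median 103). The cKOAstro library with Xist held 116 CPM of Maob, within the range of the others of its group. Means lay between 96.2 ± 10.5 CPM in SFN-fed ConAstro and 104 ± 12.7 CPM in SFN-fed cKOAstro.

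Loss of ALDH7A1 on the control diet was tested first, with the quasi-likelihood test of edgeR over all genes and Benjamini-Hochberg adjustment. None of the 8 genes passed an adjusted p of 0.05 in cKOAstro against ConAstro, where 0.023% of all 17406 genes did, and none had an unadjusted p under 0.05, where 3.74% of all genes did. DESeq2 called none either (0.0383% of all genes), and 0 of 8 at an unadjusted p under 0.05 (4.35%). No gene of the 8 had groups that did not overlap, here or in the 4 comparisons that follow, where 0.494%, 1.23%, 1.93%, 0.0947% and 1.45% of all genes did in turn. Differences on the log2 scale ran from -0.26 ± 0.16 (SE) for Gabra2 to 0.15 ± 0.14 for Slc6a13, with a median over the 8 of -0.037 beside -0.0072 over all genes. The 95% interval of Slc6a11 ran from -0.31 to 0.10 and that of Maob from -0.17 to 0.27. The widest intervals were those of Gabra2 (-0.62 to 0.097) and Gabbr2 (-0.37 to 0.34), so differences within these intervals were not excluded.

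On the SFN diet, the same comparison of genotypes gave 7 lower and 1 higher of the 8 genes in SFN-fed cKOAstro, with a median log2 difference of -0.20 beside 0.0073 over all genes. Without the 2 libraries against their labels these were again 7 and 1, with a median of -0.27 beside 0.0057. Astrocyte markers other than Slc1a3 (9 genes) had a median sum of 20809 CPM in SFN-fed ConAstro and 19213 CPM in SFN-fed cKOAstro, or 23129 and 18941 CPM without these libraries. Oligodendrocyte markers stood at 25542 and 29258 CPM, or 24085 and 27093 CPM without these libraries. The part of these cells in the differences was not tested. None passed the adjusted threshold, as was so for all 16672 genes (0%). Slc6a13 alone had an unadjusted p under 0.05, 1 of 8 where 20.3% of all genes had one. It was 10.2 CPM against 15.6 CPM, a log2 difference of -0.62 ± 0.26 (95% interval -1.19 to -0.054, unadjusted p = 0.0341, adjusted p = 0.223 by edgeR). Without the 2 libraries against their labels it was -0.71 ± 0.27 (adjusted p = 0.31), and among libraries without Astro names -0.51 ± 0.18 (adjusted p = 0.402). The set without Astro names keeps SFN-fed cKOAstro replicate 2, 1 of the 2 libraries against their labels, in every test of that group. Gabra2 differed by -0.40 ± 0.22 (adjusted p = 0.314), by -0.48 ± 0.25 without the 2 libraries against their labels and by -0.19 ± 0.16 without the Astro names. Maob was the 1 gene higher in SFN-fed cKOAstro, by 0.11 ± 0.093, or 0.052 ± 0.10 without the 2 libraries.

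The SFN diet in control mice left 4 of the genes higher and 4 lower, with a median log2 difference of 0.0025 beside -0.0055 over all genes, and 5 higher and 3 lower without the library against its label (median 0.060). No gene of the 16509 tested passed the adjusted threshold (0%), the 8 included. Slc6a13 was higher in SFN-fed ConAstro by 0.51 ± 0.19 on the log2 scale (95% interval 0.083 to 0.94, unadjusted p = 0.0239, adjusted p = 0.762 by edgeR), 1 of 8 with an unadjusted p under 0.05 where 6.54% of all genes had one. Without the library at odds with its label the difference was 0.65 ± 0.11 (unadjusted p = 0.00032, adjusted p = 0.529), and 4 of 4 remaining libraries then lay above all ConAstro libraries, where 5.04% of all genes had groups that did not overlap. That library is also the only one of the group with an Astro name, so the value among the other names is the same. ConAstro and SFN-fed ConAstro share no name series, so diet and name series cannot be told apart in these values. The intervals of the other 7 genes held 0 and lay between -0.49 and 0.50 on the log2 scale.

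**Figure D3:**
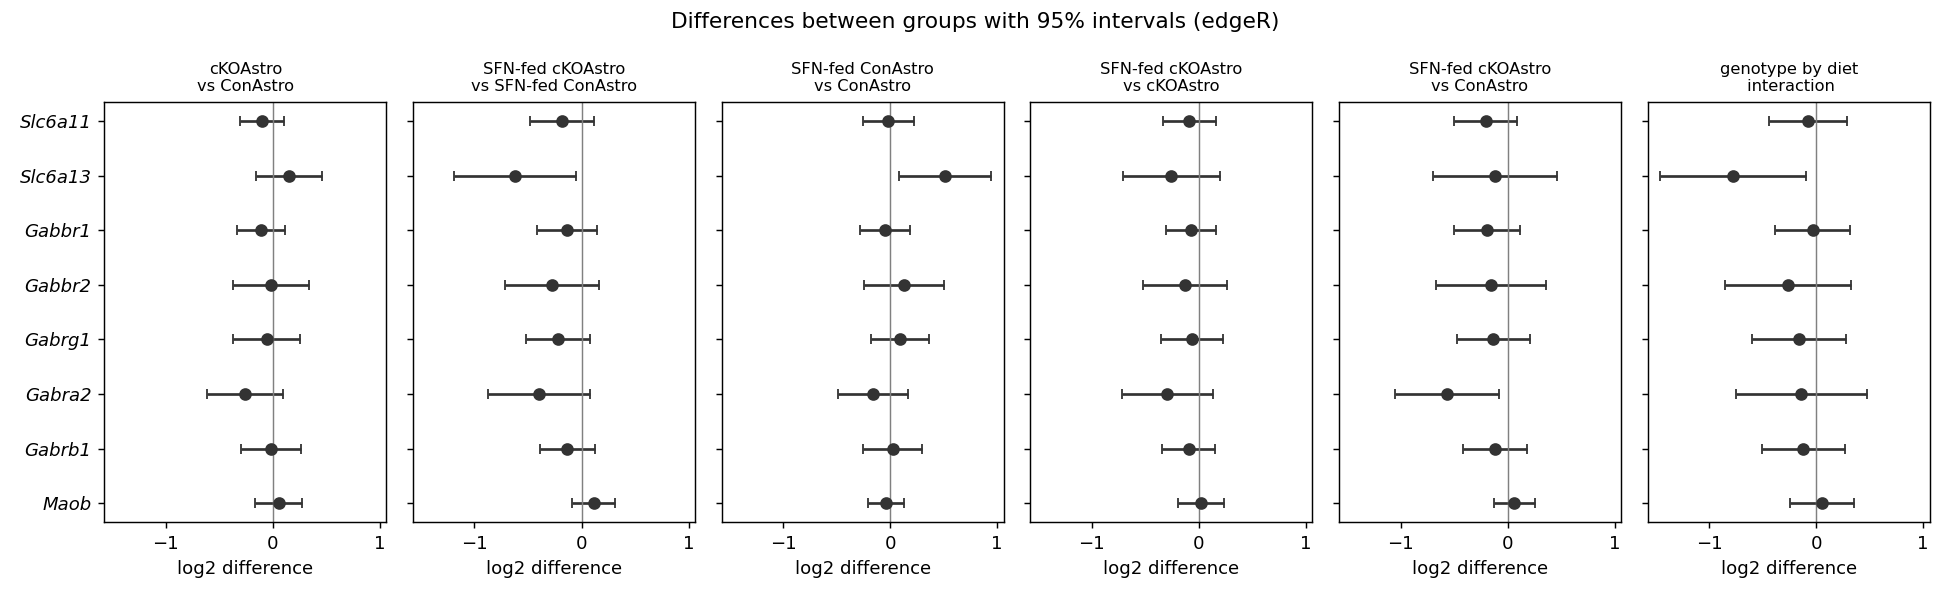
Log2 differences of the 8 genes in 5 comparisons of groups and in the interaction of genotype and diet (edgeR, points), with 95% intervals (bars) and a line at 0. Of 48 intervals, those of Slc6a13 in 3 panels and of Gabra2 in 1 panel do not include 0 before adjustment, and none passes after it.

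In cKOAstro mice, the SFN diet gave none of the genes an unadjusted p under 0.05 (0 of 8, where 10.9% of all 16903 genes had one), nor an adjusted one (0% of all genes). Values were lower in SFN-fed cKOAstro than in cKOAstro for 7 of the 8 genes, with a median of -0.091 beside 0.0061 over all genes. The largest differences were those of Gabra2, -0.30 ± 0.20, and Slc6a13, -0.26 ± 0.21. Among libraries without Astro names they were -0.11 ± 0.18 and -0.059 ± 0.20. Without the library against its label, Slc6a13 differed by -0.22 ± 0.23 and Gabra2 by -0.30 ± 0.22, and all 8 genes were lower (median -0.12).

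SFN-fed cKOAstro was also set against ConAstro, the comparison that asks whether treated mice differ from untreated controls. Again 0 of 8 genes passed the adjusted threshold, and 0% of all 16753 genes did. Gabra2 was 22.4 CPM against 32.8 CPM, a log2 difference of -0.56 ± 0.22 with a 95% interval of -1.05 to -0.076 (unadjusted p = 0.027, adjusted p = 0.557 by edgeR), 1 of 8 with an unadjusted p under 0.05 where 8.67% of all genes had one. Without the library against its label it was -0.55 ± 0.24 (adjusted p = 0.74), and among libraries without Astro names -0.28 ± 0.14 (adjusted p = 0.799). The 9 astrocyte markers had a median sum of 22834 CPM in ConAstro and 19213 CPM in SFN-fed cKOAstro, and oligodendrocyte markers of 23461 and 29258 CPM. The part of these cells in the difference of Gabra2 was not tested. Slc6a13 differed by -0.12 ± 0.26, by -0.065 ± 0.28 without the library against its label and by 0.14 ± 0.18 without the Astro names, a change of sign.

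Whether the genotype difference depended on diet was tested as an interaction over all 4 groups. Slc6a13 gave -0.78 ± 0.33 on the log2 scale (95% interval -1.46 to -0.098, unadjusted p = 0.0267, adjusted p = 0.674 by edgeR), 1 of 8 where 7.32% of all 17302 genes had an unadjusted p under 0.05 and 0% an adjusted one. Without the 2 libraries against their labels it was -0.87 ± 0.32 (adjusted p = 0.561). Among libraries without Astro names it was -0.71 ± 0.25 (adjusted p = 0.465). For the other 7 genes the interaction lay between -0.26 ± 0.28 for Gabbr2 and 0.057 ± 0.14 for Maob, and without the 2 libraries between -0.35 ± 0.30 for Gabbr2 and -0.0021 ± 0.15 for Maob. The comparisons share groups, so the values of Slc6a13 in them are not independent of each other. DESeq2 gave the same counts of unadjusted p under 0.05 among the 8 genes in all 6 tests (0, 1, 1, 0, 1 and 1). Over all genes that share was 19.4% between genotypes on SFN, 6.35% and 11.1% for the diet in controls and in cKOAstro, 9.1% for SFN-fed cKOAstro against ConAstro and 7.5% for the interaction. DESeq2 made no adjusted call among the 8, where it called 1.5%, 0.14%, 0.0881%, 0.0391% and 0.0141% of all genes in these 5 tests.

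Slc6a13 was set beside markers of vessel and meningeal cells. Summed mural cell markers (7 genes) were 1033 to 1541 CPM in ConAstro, 1233 to 1778 in cKOAstro, 1267 to 2028 in SFN-fed ConAstro and 708 to 1762 CPM in SFN-fed cKOAstro. The lowest mural sums, 708 and 823 CPM, were in the SFN-fed cKOAstro replicates 4 and 5 that also had the lowest Slc6a13. ConAstro replicate 3, with the lowest mural sum of its group at 1033 CPM, held the highest Slc6a13 of that group. Endothelial markers (6 genes) summed to 187 to 505 CPM in ConAstro, 184 to 266 in cKOAstro, 406 to 650.3 in SFN-fed ConAstro and 152 to 658 CPM in SFN-fed cKOAstro. Fibroblast markers (7 genes) summed to 189.9 to 334, 170.2 to 261, 233 to 332 and 95.6 to 301 CPM in the same order. Over 23 libraries the rank correlation of Slc6a13 was 0.77 with mural, 0.60 with oligodendrocyte precursor, 0.49 with fibroblast, 0.47 with endothelial and 0.36 with astrocyte markers. The astrocyte sum here includes Slc1a3, the gene that carries CreER in the cKOAstro groups. Slc6a11 had 0.92 with astrocyte markers and Gabrg1 0.84, Gabra2 0.80 and Maob 0.55. With mural markers these genes had 0.54, 0.66, 0.62 and 0.13 in turn. With endothelial markers they had 0.49, 0.63, 0.55 and 0.097, and with fibroblast markers 0.45, 0.53, 0.41 and -0.075. The part of these cells in the differences of Slc6a13 was not tested.

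**Figure D4:**
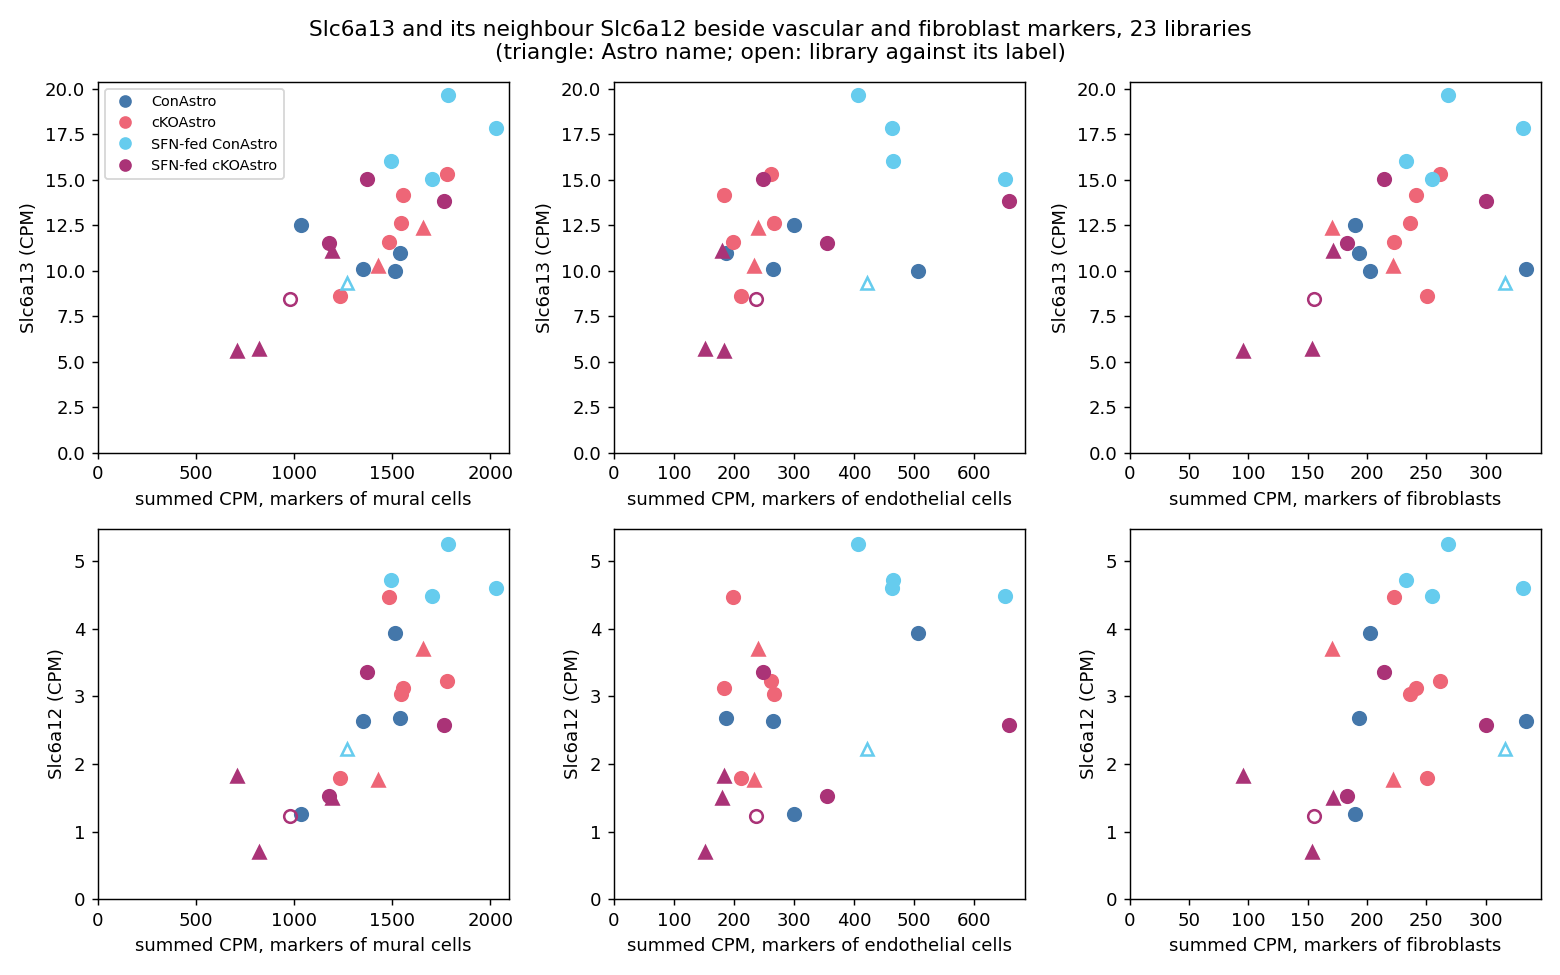
Slc6a13 (top) and its neighbour Slc6a12 (bottom), in CPM, against the summed CPM of mural, endothelial and fibroblast markers in 23 libraries, coloured by group, with triangles for Astro names and open symbols for libraries against their labels. SFN-fed cKOAstro replicates 4 and 5 have the lowest mural sums, 708 and 823 CPM, and the lowest Slc6a13, while ConAstro replicate 3 has a mural sum of 1033 CPM and 12.5 CPM of Slc6a13.

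Slc6a12, the neighbour of Slc6a13, was the GABA gene outside the 8 with the lowest p. It was 4.25 CPM in SFN-fed ConAstro and 1.82 CPM in SFN-fed cKOAstro, a log2 difference of -1.23 ± 0.33 (adjusted p = 0.195 by edgeR and 0.0338 by DESeq2, which called 1 of 45 of these genes there, beside 1.5% of all genes). Without the 2 libraries against their labels it was -1.31 ± 0.34 (adjusted p = 0.31 by edgeR and 0.0388 by DESeq2). For that DESeq2 fit the share of all genes called is not given here. All 7 SFN-fed cKOAstro libraries were within 0.696 to 3.36 CPM, and 4 of the 5 SFN-fed ConAstro libraries were between 4.48 and 5.25 CPM, the fifth at 2.22 CPM being the library against its label. Without the 2 libraries against their labels the groups did not overlap, as was so for 4.81% of all genes. Its rank correlation was 0.78 with mural and 0.83 with oligodendrocyte precursor markers. Its interaction of genotype and diet was -1.43 ± 0.49 (adjusted p = 0.673 by edgeR), and -1.51 ± 0.49 without the 2 libraries.

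Of the 48 other GABA genes, 45 were tested in the fit of all 4 groups. Gabra6 had no count in any library, and Gabrp and Gabrr3 were too low. None passed the adjusted threshold of edgeR in any comparison. In cKOAstro against ConAstro 32 of 45 were higher and 13 lower, with 2 of 45 at an unadjusted p under 0.05, where 3.74% of all genes were. These were Sat1, the acetyltransferase of the putrescine route, at -0.18 ± 0.067, and Kctd8, an auxiliary subunit of GABA-B receptors, at 0.68 ± 0.31. On the SFN diet 18 of 45 were higher in cKOAstro and 27 lower, with 5 of 45 at an unadjusted p under 0.05 beside 20.3% of all genes. Gabarapl1, which takes part in receptor trafficking and autophagy, differed by 0.35 ± 0.11 (adjusted p = 0.195 by edgeR). The SFN diet in control mice gave 25 of 44 higher and 19 lower, with 4 of 44 at an unadjusted p under 0.05 beside 6.54% of all genes, and lower values of Aldh1a1, an aldehyde dehydrogenase that can form GABA (-0.32 ± 0.086), and Sat1 (-0.26 ± 0.081, with no overlap between the groups, 1 of 44 where 1.93% of all genes had none). In cKOAstro mice the diet gave 16 of 45 higher and 29 lower, with 1 of 45 at an unadjusted p under 0.05 beside 10.9% of all genes. That gene was Slc6a12 at -0.73 ± 0.30, followed by Gabarap at 0.17 ± 0.085. SFN-fed cKOAstro against ConAstro gave 22 higher and 23 lower, 2 of 45 with an unadjusted p under 0.05 beside 8.67%, with Aldh1a1 at -0.41 ± 0.12 and Gabarapl1 at 0.29 ± 0.12. The interaction gave 12 higher and 33 lower of 45, 2 with an unadjusted p under 0.05 beside 7.32%, with Sat1 at 0.31 ± 0.14 after Slc6a12. Without the libraries against their labels, the counts higher and lower were 16 and 29 between genotypes on SFN, 29 and 15 for SFN in controls, 18 and 27 for SFN in cKOAstro, 23 and 22 for SFN-fed cKOAstro against ConAstro and 11 and 34 for the interaction. An unadjusted p under 0.05 was then reached by 4, 7, 0, 1 and 2 of them, beside 14.9%, 8.41%, 6.94%, 5.47% and 8.32% of all genes.

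By family, the 13 tested GABA-A subunits outside the 8 were 10 higher and 3 lower in cKOAstro against ConAstro (median 0.24) and 4 and 9 on the SFN diet (median -0.12). They were 8 and 5 for SFN in controls, 2 and 11 for SFN in cKOAstro, 6 and 7 for SFN-fed cKOAstro against ConAstro and 1 and 12 in the interaction (median -0.27), and none passed the adjusted threshold. Without the libraries against their labels these counts stayed as they were, apart from 9 and 4 for SFN in controls. Neuronal markers had median sums of 339 CPM in ConAstro, 461 in cKOAstro, 419 in SFN-fed ConAstro and 476 CPM in SFN-fed cKOAstro. Their ranges overlapped, at 228 to 622, 352 to 892, 232 to 670 and 131 to 825 CPM in turn. Markers of GABAergic neurons (6 genes) had medians of 29.7, 37.3, 36.4 and 40.0 CPM. These ranges also overlapped, at 14.8 to 164, 33.2 to 72.2, 20.5 to 58.6 and 26.1 to 47.7 CPM. The part of neurons in the differences of the subunits was not tested. The breakdown enzymes Abat and Aldh5a1, which turn GABA into succinate, were both lower in cKOAstro than in ConAstro when fed SFN (median -0.091, and -0.13 without the 2 libraries) and both higher on the control diet (median 0.018), neither past the threshold.

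The genes whose rank order over 23 libraries was most like each of the 8, among 17301 others, were as follows in Spearman correlation. Slc6a11 was nearest to Arhgef26 (0.95), Acsl6 (0.94) and Xpr1 (0.94), Gabbr1 to Ctnnd2 (0.95), Rorb (0.94) and Abcd2 (0.94), and Gabbr2 to Znrf3 (0.91), Ncoa1 (0.91) and Xpr1 (0.90). Among the subunits, Gabrg1 had Axl (0.95) and S1pr1 (0.94) among its 3 nearest, Gabra2 had Tmem56 (0.93) and Wnt7b (0.93), and Gabrb1 had Ahcyl1 (0.90) and Plxnb1 (0.90). Slc6a13 was nearest to Fam101a (0.90), Cemip (0.88) and Lama1 (0.88), and Maob to Naaa (0.92), Epdr1 (0.88) and Tmem129 (0.88). Between the 8 genes themselves all 28 pairs had a positive correlation, from 0.061 for Slc6a13 with Maob to 0.88 for Gabbr1 with Gabra2, with a median of 0.58. These correlations describe libraries that share depth scaling and cell makeup.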

How the data were processed

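Cortical astrocytes were captured by MACS, and poly(A) RNA was sequenced as paired ends in 23 libraries. The authors checked reads with FastQC, aligned them to mm10 with STAR and deposited raw read counts per gene symbol, without normalization or pooling (the STAR version, the annotation and the counting setting are not given in the sources used here). Library names in the labels mapped each column to its sample, and no column was left over. No pair of libraries of the same group agreed within counting noise (lowest chi-square per degree of freedom 42.4). Pairs from different groups were not compared. Each library was treated as 1 replicate. Per the study's methods, n in RNA-seq is the number of animals.

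Counts were fitted with edgeR 4.0.16 in R 4.3.3 (limma 3.58.1): TMM scaling, filterByExpr (minimum count 10, minimum total 15), glmQLFit and glmQLFTest, two-sided, Benjamini-Hochberg over all genes tested, threshold 0.05. Each comparison used its 2 groups, and the interaction used all 4. The SE is the log2 difference over the square root of F. CPM used 1 TMM scaling of 23 libraries, and log2 CPM a prior count of 2. Levels between genes are per kb of merged exons of GENCODE M21, which matched 23334 symbols to 1 gene each. The fit was tested on simulated counts. Reads carry no molecular identifiers, so counting error is a lower limit.

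The 8 genes were named by symbol. Of the 48 other GABA genes, those past the threshold and the 2 with the lowest p in each comparison were named, as were the 3 genes most like each of the 8. Some genes that these rules or the comparison of related genes would name are not reported here. Members, gene lists, markers and tests were chosen with earlier results of these data known. Alternatives were DESeq2 1.42.0, RLE scaling, no filter (at least 1 count in all), a replicate block, a fit of all 4 groups, libraries without Astro names, libraries that fit their labels, and leaving out each library. For the other GABA genes, DESeq2 and the set of libraries that fit their labels were chosen as alternatives after seeing the data.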

Additional observations from a re-analysis of the deposited data

Results flagged for a closer look

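Of 56 sets of libraries tested for a single extreme value (the 8 genes and 6 other named GABA genes, in 4 groups each), 3 held one, where chance gives about 1 in 20, or 2.80. None of the 32 sets of the 8 genes did. Kctd8 was 1.30 CPM in ConAstro replicate 3, where the others of the group held 0.51 to 0.58 CPM. Gabarap was 168 CPM in the same library, where the others held 154 to 156 CPM. Slc6a12 was 2.22 CPM in SFN-fed ConAstro replicate 1, where the others held 4.48 to 5.25 CPM, and this library also went against its label at Aldh7a1. The causes were not tested.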

How the results depend on the processing

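None of the 8 genes was called in any of the 6 tests under any alternative, and the lowest adjusted p among them was 0.0894, for Slc6a13 between genotypes on the SFN diet in the fit of all 4 groups. Of 960 alternative values of their 48 log2 differences, 917 kept their sign and 43 changed it, all with sizes of at most 0.14, and the causes were not tested. RLE scaling moved none of 32 group means by more than 1 SD. The changed signs outside single left-out libraries were as follows. Without the Astro names they were Slc6a11 0.037 for SFN in controls (the same without the library against its label), Slc6a11 0.0029, Gabbr1 1.3e-05, Gabrg1 0.039 and Gabrb1 0.017 for SFN in cKOAstro, Slc6a13 0.14 and Gabrg1 0.026 for SFN-fed cKOAstro against ConAstro, and Gabbr1 0.028 for the interaction. Without the libraries against their labels they were Maob -0.0053 for SFN in cKOAstro and -0.0021 for the interaction.

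Replicate numbers are shared between groups. The deviations of same-numbered libraries from their group means correlated with r from -0.21 to 0.34. Over 0.1 were 0 of 4, 1 of 5, 2 of 4, 2 of 7 and 1 of 4 pairs, in the order of the report. Libraries with different numbers were not compared in this way. With the replicate block, Gabbr2 gave 0.051 and Gabrb1 0.038 in cKOAstro against ConAstro, 1 gene of all was called there in place of 4, and no other sign of the 8 genes turned.

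Counts of all genes called by DESeq2 were 8, 250, 24, 15, 8 and 3 in the order of the report, against 4 and then 0 by edgeR. The fit of all 4 groups called 0 genes between genotypes without SFN and 3 with it. Without the libraries against their labels, 2 genes were called between genotypes on the SFN diet and 2 for SFN-fed cKOAstro against ConAstro. With 1 library left out, calls ran from 2 to 4, from 0 to 701 (701 without SFN-fed cKOAstro replicate 3), from 0 to 1 for SFN in controls and from 0 to 2 for SFN-fed cKOAstro against ConAstro. Ranges that crossed 0 were Gabbr2 -0.16 to 0.062, Gabrg1 -0.15 to 0.035 and Gabrb1 -0.12 to 0.050 between genotypes on the control diet. For SFN in controls they were Slc6a11 -0.082 to 0.037, Gabbr2 -0.023 to 0.20, Gabrg1 -0.0036 to 0.18 and Gabrb1 -0.092 to 0.083, and for SFN in cKOAstro Gabrg1 -0.14 to 0.016 and Maob -0.031 to 0.079. The interaction of Gabbr1 ran from -0.094 to 0.031.

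For the other named GABA genes, alternatives chosen after seeing the data kept every sign. DESeq2 called Slc6a12 between genotypes on the SFN diet (-1.23, adjusted p = 0.0338, and -1.31, adjusted p = 0.0388, without the libraries against their labels), and, without the library against its label, Sat1 for SFN in controls (-0.29, adjusted p = 0.0323). Slc6a12 was 1 of 45 in both fits, beside 1.5% of all genes with all libraries, and Sat1 was 1 of 44. With all libraries, DESeq2 gave Sat1 an adjusted p of 0.341. The share of all genes that DESeq2 called without the libraries against their labels is not given here. By edgeR, 14.9% and 8.41% of all genes had an unadjusted p under 0.05 in these 2 comparisons without them. EdgeR called neither.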
